A study of Mus musculus with 6 samples.

Results

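The 10 genes described here are Cdkn1a, Mdm2, Gadd45a, Gadd45b, Gadd45g, Btg2, Ccnd1, Myc, Egr1 and Jun. They are p53 response, growth arrest and early growth response genes, chosen by name with earlier results of these data known. All 10 were among the 23284 genes counted in each liver. The livers came from male FXR-floxed mice that had all received AAV-TBG-Cre at 8 weeks of age, which deletes mouse FXR where the hepatocyte-specific TBG promoter is active, so other liver cells kept their own FXR. With it, 3 mice had received AAV carrying wild-type FXR (FXR-WT) and 3 the mutant in which tyrosine 67 is replaced by phenylalanine (Y67F-FXR). The mice were killed 4 weeks after the injection, having eaten for 6 h chow with 0.5% cholic acid, a bile acid that activates FXR, so every sample had the same deletion, vector promoter and bile acid load. The comparison of Y67F-FXR with FXR-WT asks how livers with an FXR that cannot be phosphorylated at this tyrosine differ under that load.

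FXR is the nuclear receptor for bile acids and controls their synthesis and transport in the hepatocyte. Immediate early genes such as Egr1, Jun and Myc encode transcription factors whose transcripts appear within minutes of a growth factor or stress signal and are then quickly degraded. The tumour suppressor p53 is a transcription factor that responds to DNA damage and other stress by switching on Cdkn1a, which halts the cell cycle, Mdm2, which marks p53 itself for degradation, Gadd45a and Btg2. The Gadd45 proteins are small stress sensors that bind cell cycle and kinase partners, and Ccnd1 encodes cyclin D1, which drives cells from rest towards DNA synthesis.

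The libraries held between 19551113 and 22053320 counted reads, and 12453 genes, including all 10 described here, had enough reads to be tested. Member counts ran from 20 reads (Gadd45b in FXR-WT replicate 3) to 896 reads (Egr1 in FXR-WT replicate 3). Levels are given in CPM (read counts scaled to a common library size, with TMM factors), and the groups were compared by edgeR's quasi-likelihood method, with p-values adjusted after Benjamini and Hochberg over the 12453 genes. Genes count as called here if their adjusted p was under 0.05 and their fitted fold change over 1.5. Nr1h4, the mouse FXR gene, had 186 ± 30.2 CPM in FXR-WT and 175 ± 9.84 CPM in Y67F-FXR (SD, n = 3 each), with a log2 fold change of -0.09 and an adjusted p of 0.861 (edgeR), and its reads may hold both the mouse gene's transcripts and any of the vector's FXR that align to it. The livers had strong hepatocyte markers, which summed to between 97974 and 121790 CPM over 7 genes. Which of the study's mice were sequenced is not given in the sources used here, so p-values measure the spread between these 6 samples.

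The promoters of the 3 Gadd45 genes are shown because these related genes had fitted differences of opposite sign between the groups, and those of Cdkn1a and Mdm2 because both are classical p53 targets. Each line holds the 250 bases before a transcription start in RefSeq (build GRCm38.p6, a later build than the mm9 of the counts), in the gene's own direction. They lie at chr6:67037408-67037657 on the minus strand for Gadd45a, chr10:80929841-80930090 on the plus strand for Gadd45b, chr13:51846425-51846674 on the plus strand for Gadd45g, chr17:29090729-29090978 on the plus strand for the first of the starts listed for Cdkn1a, and chr10:117710759-117711008 on the minus strand for Mdm2. Capitals mark matches, on either strand, to any of 9 motifs searched.
Gadd45a: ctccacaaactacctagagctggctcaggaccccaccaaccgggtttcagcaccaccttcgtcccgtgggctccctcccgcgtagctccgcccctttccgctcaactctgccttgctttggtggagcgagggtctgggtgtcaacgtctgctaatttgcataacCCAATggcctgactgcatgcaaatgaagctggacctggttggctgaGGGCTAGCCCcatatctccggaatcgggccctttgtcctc
Gadd45b: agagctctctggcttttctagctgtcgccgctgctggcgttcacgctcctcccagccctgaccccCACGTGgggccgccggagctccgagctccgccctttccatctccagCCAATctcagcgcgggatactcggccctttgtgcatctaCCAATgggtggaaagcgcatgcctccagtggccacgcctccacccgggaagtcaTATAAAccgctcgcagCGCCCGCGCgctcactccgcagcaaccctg
Gadd45g: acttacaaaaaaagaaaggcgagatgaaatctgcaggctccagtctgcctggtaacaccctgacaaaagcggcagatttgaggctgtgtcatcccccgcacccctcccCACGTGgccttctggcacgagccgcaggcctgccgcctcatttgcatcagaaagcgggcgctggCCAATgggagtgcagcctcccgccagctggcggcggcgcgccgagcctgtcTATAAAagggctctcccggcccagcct
Cdkn1a: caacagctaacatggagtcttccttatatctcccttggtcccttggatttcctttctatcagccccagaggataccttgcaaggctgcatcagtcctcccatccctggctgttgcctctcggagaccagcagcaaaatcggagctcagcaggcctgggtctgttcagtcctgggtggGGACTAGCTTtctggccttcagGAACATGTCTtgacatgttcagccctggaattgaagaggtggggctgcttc
Mdm2: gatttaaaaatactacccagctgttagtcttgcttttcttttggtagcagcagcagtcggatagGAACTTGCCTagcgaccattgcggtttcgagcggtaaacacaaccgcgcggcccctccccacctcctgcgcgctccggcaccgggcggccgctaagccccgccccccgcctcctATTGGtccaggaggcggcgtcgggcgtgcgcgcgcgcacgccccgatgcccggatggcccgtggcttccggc

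Counting back from -1 at the base before the start, Gadd45a had a CCAAT box at -86 and a p53 half-site at -40. Gadd45b had CCAAT boxes at -139 and -100, a TATA box (TATAAA) at -46, an E-box (CACGTG) at -185 and an EGR site (GCGNGGGCG, read here on the other strand) at -30. Gadd45g had a CCAAT box at -78, a TATA box at -27 and an E-box at -142. The first Cdkn1a window held p53 half-sites at -73 and -51, while its second window, at chr17:29093519-29093768 and not shown, held no match to any of the 9 motifs. Mdm2 held a p53 half-site at -186 and a CCAAT box at -72. The marked matches did not overlap each other. Gadd45b and Gadd45g thus shared a TATA box and an E-box that the Gadd45a window did not hold in these letters.

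Such matches are common in promoters at large. Of 32851 RefSeq windows of this length, 33.85% held CCAAT, 12.37% TATAAA, 7.126% a p53 half-site, 6.021% CACGTG and 4.697% the EGR site. The other motifs searched were the cAMP response element TGACGTCA (1.546% of windows), the AP-1 site TGANTCA (6.749%), the CArG box (1.467%) and the FXR inverted repeat, made of the half-sites AGGTCA and TGACCT around a single base (0.006088%). Among the members, 7 had a RefSeq window, and the 3 without one were Ccnd1, Myc and Egr1. Of the windows not shown, Jun had a CCAAT box at -65, and Btg2 had CCAAT boxes at -173 and -34, a cAMP response element at -166 and an EGR site at -131.

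None of the 10 genes was called. With edgeR, 0 of 10 passed, against 0.972% of all 12453 tested genes, and 5 of 10 had an unadjusted p under 0.05, against 13.4%. DESeq2 called Gadd45a, Gadd45b and Egr1, but it also called more genes at large, 431 of the 12453. The groups did not overlap for 4 genes (Gadd45a, Egr1 and Jun with lower and Gadd45b with higher values in Y67F-FXR), or 40% of them against 20.6% of all tested genes. The fitted fold exceeded 1.5 for 4 genes (Gadd45a, Egr1, Gadd45b and Gadd45g), where 9.04% of all tested genes did. The members were chosen with earlier results of these data known, so these shares cannot be read as an independent excess. The median log2 fold change over the 10 genes was -0.17, with 4 fitted higher and 6 lower, beside 0.01 over all tested genes. In whole-liver RNA, fewer cells of a type and less RNA per cell cannot be told apart.

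**Figure D1:**
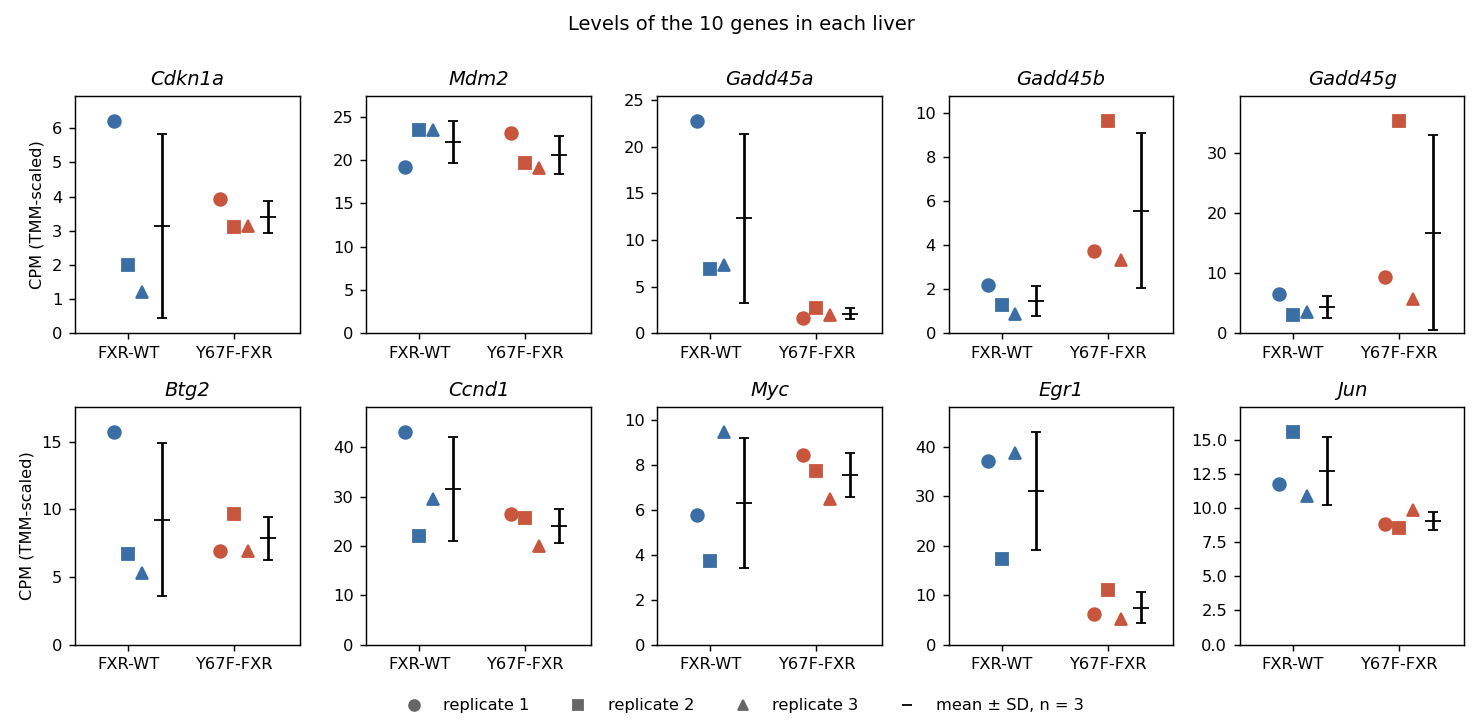
Level of each of the 10 genes in each liver, in TMM-scaled CPM on a linear axis from 0, with a point per liver shaped by its replicate number and the mean ± SD of 3 livers in black. Gadd45a, Egr1 and Jun have every Y67F-FXR liver under every FXR-WT liver, Gadd45b has the reverse, and the other 6 genes overlap between groups.

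Gadd45a, a growth arrest and DNA damage gene that p53 activates, had 22.7, 6.88 and 7.30 CPM in FXR-WT replicates 1 to 3 and 1.65, 2.73 and 1.96 CPM in Y67F-FXR replicates 1 to 3. Every Y67F-FXR liver was under every FXR-WT liver, and FXR-WT replicate 1 stood far above the others. The fitted level was 5.83-fold lower in Y67F-FXR, a log2 fold change of -2.54 (standard error 0.508, 95% interval -3.71 to -1.37) with an unadjusted p of 0.00105 and an adjusted p of 0.0724 (edgeR). Without FXR-WT replicate 1 the log2 fold change was -1.75 and the gene was called, with an adjusted p of 0.0466 (edgeR), in a range from 0.0466 to 0.290 over the 6 fits that each left out a liver. With an offset for gene length the adjusted p was 0.0279 and with no filter on low counts it was 0.0386 (both edgeR).

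The gene lies on the minus strand of chromosome 6 of mm9 (66985090 to 66987401) in 4 exons, and 238 of its 1224 exon bases are also exon of E230016M11Rik, a gene on the plus strand. Reads were counted without strand and those on the shared bases were given to neither gene, so the counts of Gadd45a come from the other 986 bases and levels over its whole exon length are understated. E230016M11Rik itself, named here because of that overlap, had 2.35, 2.52 and 2.51 CPM in FXR-WT and 1.17, 1.15 and 1.10 CPM in Y67F-FXR. Its groups did not overlap either, with a log2 fold change of -1.11 and an adjusted p of 0.0721 (edgeR), and reads of both genes cannot be told apart on strand.

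Gadd45b, a family member induced by inflammatory and growth signals, had 2.20, 1.31 and 0.864 CPM in FXR-WT and 3.74, 9.66 and 3.34 CPM in Y67F-FXR. All 3 Y67F-FXR livers were above all 3 FXR-WT livers, and Y67F-FXR replicate 2 was the highest. The log2 fold change was 1.93 (standard error 0.501, 95% interval 0.78 to 3.09), with an unadjusted p of 0.00483 and an adjusted p of 0.139 (edgeR). Without Y67F-FXR replicate 2 the log2 fold change was 1.28. The gene occupies chromosome 10 of mm9 from 80392836 to 80394949 on the plus strand, in 4 exons of 1266 bases.

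Gadd45g, the third family member, had 6.50, 3.01 and 3.59 CPM in FXR-WT and 9.28, 35.2 and 5.68 CPM in Y67F-FXR. The groups overlapped, since Y67F-FXR replicate 3 lay under FXR-WT replicate 1, and Y67F-FXR replicate 2 alone set most of the mean. The log2 fold change was 1.93 (standard error 0.661, 95% interval 0.41 to 3.46), with an unadjusted p of 0.0191 and an adjusted p of 0.251 (edgeR), and it was 0.77 without Y67F-FXR replicate 2. Gadd45g lies on chromosome 13 of mm9 (51942044 to 51943843, plus strand) in 4 exons of 1080 bases.

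Per kilobase of exon, the summed level of the family overlapped between the groups while its makeup did not. The sum was 26.3, 9.44 and 9.97 CPM per kb in FXR-WT and 12.9, 42.5 and 9.50 CPM per kb in Y67F-FXR. Gadd45a made up 70.5%, 59.6% and 59.8% of this sum in FXR-WT and 10.5%, 5.25% and 16.8% in Y67F-FXR. Gadd45g was the larger part in Y67F-FXR, with 66.6%, 76.8% and 55.4%, against 22.9%, 29.5% and 33.3% in FXR-WT.

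Gadd45b took 6.60%, 11.0% and 6.85% in FXR-WT and 22.9%, 18.0% and 27.8% in Y67F-FXR. On average Gadd45a made up 63.3% ± 6.25 of the family in FXR-WT and 10.8% ± 5.80 in Y67F-FXR (SD, n = 3 each). The log2 ratio of Gadd45b to Gadd45a per kb was -3.42, -2.44 and -3.13 in FXR-WT and 1.13, 1.78 and 0.72 in Y67F-FXR. All 3 FXR-WT livers thus held more Gadd45a than Gadd45b and all 3 Y67F-FXR livers the reverse. These shares divide Gadd45a by all of its exon bases. With its unshared bases alone, a choice made after the data were seen, it made up between 64.7% and 74.8% in FXR-WT and between 6.43% and 20.1% in Y67F-FXR, and the log2 ratio of Gadd45b to Gadd45a was from -3.73 to -2.76 and from 0.41 to 1.46. No test was made of these shares, which are built from the values above.

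**Figure D2:**
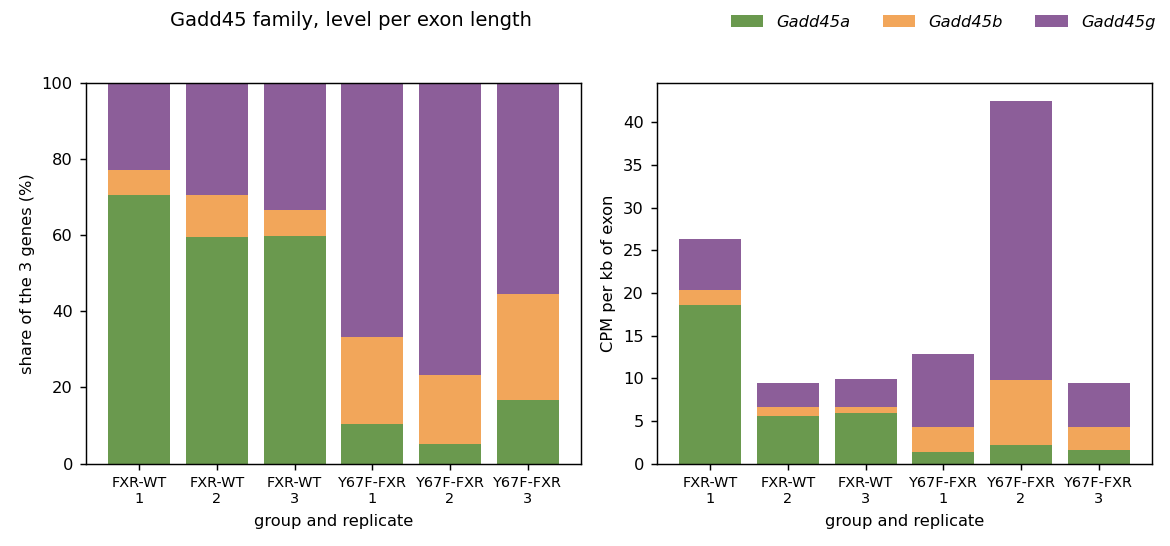
Gadd45a, Gadd45b and Gadd45g in each liver, as shares of their sum in percent (left) and as stacked CPM per kb of all exon bases (right), both on linear axes from 0. The Gadd45a share is between 59.6% and 70.5% in FXR-WT and between 5.25% and 16.8% in Y67F-FXR, while the summed level overlaps between the groups.

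The 3 Gadd45 genes are short, and the libraries differed in how they represented short genes. Among the shortest 20% of tested genes, with a median length of 1152 exon bases, the median log2 deviation from the mean of all livers was 0.20 for FXR-WT replicate 1 and 0.22 for Y67F-FXR replicate 2, and it was negative, at -0.18 and -0.20, for FXR-WT replicate 3 and Y67F-FXR replicate 1. FXR-WT replicate 1 was the liver with the highest Gadd45a and Y67F-FXR replicate 2 the one with the highest Gadd45b and Gadd45g. With length offsets the log2 fold changes were -2.50 for Gadd45a, 1.93 for Gadd45b and 1.87 for Gadd45g. With both of those livers left out, a choice made after the data were seen, they were -1.99, 1.70 and 1.16. Gadd45a and Gadd45b were then called, with adjusted p-values of 0.00571 and 0.0376 (edgeR), in a fit with 202 calls over all genes. Because the livers left out were the highest for these same genes, that fit narrows their spread and cannot serve as a test of them.

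The groups overlapped for the other p53 targets. Cdkn1a, which encodes the cyclin-dependent kinase inhibitor p21, had 6.21, 1.99 and 1.21 CPM in FXR-WT and 3.94, 3.11 and 3.15 CPM in Y67F-FXR. FXR-WT replicate 1 lay above and FXR-WT replicates 2 and 3 under every Y67F-FXR liver. The fitted log2 fold change was 0.13 (95% interval -1.10 to 1.35, adjusted p = 0.959, edgeR), an interval that takes in differences of more than 1 log2 unit in either direction. Without FXR-WT replicate 1 it was 1.09 (unadjusted p = 0.00776, adjusted p = 0.210, edgeR), while without FXR-WT replicate 2 or 3 it was -0.12 or -0.27. Cdkn1a lies on chromosome 17 of mm9 (29227931 to 29237667, plus strand).

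Mdm2, the ubiquitin ligase that removes p53, had the narrowest interval of the 10 genes. It had 19.3, 23.5 and 23.5 CPM in FXR-WT and 23.1, 19.6 and 19.0 CPM in Y67F-FXR, and the groups overlapped. The log2 fold change was -0.10 (95% interval -0.43 to 0.23, adjusted p = 0.843, edgeR). The gene lies on chromosome 10 of mm9 (117125961 to 117147772, minus strand) in 12 exons.

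Btg2, an antiproliferative gene that recruits mRNA deadenylation, had 15.7, 6.69 and 5.31 CPM in FXR-WT and 6.95, 9.66 and 6.92 CPM in Y67F-FXR. FXR-WT replicate 1 was above and FXR-WT replicates 2 and 3 were below every Y67F-FXR liver. The log2 fold change was -0.23 (95% interval -1.13 to 0.66, adjusted p = 0.871, edgeR), and it was 0.38 without FXR-WT replicate 1. Btg2 lies on chromosome 1 of mm9 (135971442 to 135975732, minus strand) in 2 exons.

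FXR-WT replicate 1 was thus the highest of the 6 livers for Cdkn1a, Gadd45a and Btg2 and, as given below, for Ccnd1. The same liver had 9.88 CPM of Acta2, a marker of contractile stellate and smooth muscle cells, where the other 5 livers had from 0.83 to 1.60 CPM. The 8 stellate cell markers together summed to between 210 and 229 CPM in FXR-WT and between 153 and 212 CPM in Y67F-FXR, and their part in these results was not tested. Of these 8 markers, 7 were fitted lower in Y67F-FXR, 3 of them with an unadjusted p under 0.05 (13.4% of all tested genes) and 3 with groups that did not overlap (20.6% of all tested genes), and 0 were called (edgeR). The lower direction is also that of Gadd45a, Egr1 and Jun.

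Egr1, a zinc finger transcription factor that is among the first genes induced by ERK signalling, had the smallest p of the 10. It had 37.0, 17.4 and 38.7 CPM in FXR-WT and 6.12, 11.0 and 5.25 CPM in Y67F-FXR. Every Y67F-FXR liver was under every FXR-WT liver, with FXR-WT replicate 2 and Y67F-FXR replicate 2 nearest to each other. The fitted level was 4.17-fold lower in Y67F-FXR, a log2 fold change of -2.06 (standard error 0.374, 95% interval -2.92 to -1.20), with an unadjusted p of 0.000578 and an adjusted p of 0.0547 (edgeR).

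Egr1 lay so near the threshold that small changes of method moved it across. It was called without FXR-WT replicate 2 (adjusted p = 0.0409) and without Y67F-FXR replicate 2 (adjusted p = 0.0452), while over the 6 fits that each left out a liver the adjusted p went up to 0.238 (edgeR). It also passed when library totals replaced the TMM factors (adjusted p = 0.0486), with no filter on low counts (0.0264), with length offsets (0.0346) and by DESeq2 (5.17e-06). Its log2 fold change stayed between -2.46 and -1.85 in all 16 alternatives run. The gene lies on chromosome 18 of mm9 (35020861 to 35024610, plus strand) in 2 exons of 3072 bases.

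Jun, the partner of Fos family proteins in the AP-1 transcription factor, had 11.7, 15.6 and 10.9 CPM in FXR-WT and 8.85, 8.56 and 9.83 CPM in Y67F-FXR. The groups did not overlap, but the gap between FXR-WT replicate 3 and Y67F-FXR replicate 3 was small. Its log2 fold change was -0.49 (standard error 0.174, 95% interval -0.89 to -0.09), with an unadjusted p of 0.0234 and an adjusted p of 0.269 (edgeR), and it was -0.32 without FXR-WT replicate 2. Jun is a single exon on chromosome 4 of mm9 (94715727 to 94718913, minus strand).

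Myc, which drives ribosome production and cell growth, had 5.77, 3.73 and 9.46 CPM in FXR-WT and 8.46, 7.75 and 6.49 CPM in Y67F-FXR. The FXR-WT livers spanned the whole range of the Y67F-FXR livers. The fitted log2 fold change was 0.25 (95% interval -0.47 to 0.98, adjusted p = 0.807, edgeR). Without FXR-WT replicate 3 it was 0.67 (unadjusted p = 0.0312, adjusted p = 0.403, edgeR), and without FXR-WT replicate 2 it was -0.012. Myc lies on chromosome 15 of mm9 (61816896 to 61821916, plus strand).

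Ccnd1, encoding cyclin D1, had 43.0, 22.1 and 29.5 CPM in FXR-WT and 26.4, 25.6 and 20.0 CPM in Y67F-FXR. The groups overlapped, and FXR-WT replicate 1 was the highest liver. The log2 fold change was -0.39 (95% interval -0.95 to 0.16, adjusted p = 0.563, edgeR), and without FXR-WT replicate 1 it was -0.11. Ccnd1 lies on chromosome 7 of mm9 (152115836 to 152125830, minus strand).

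**Figure D3:**
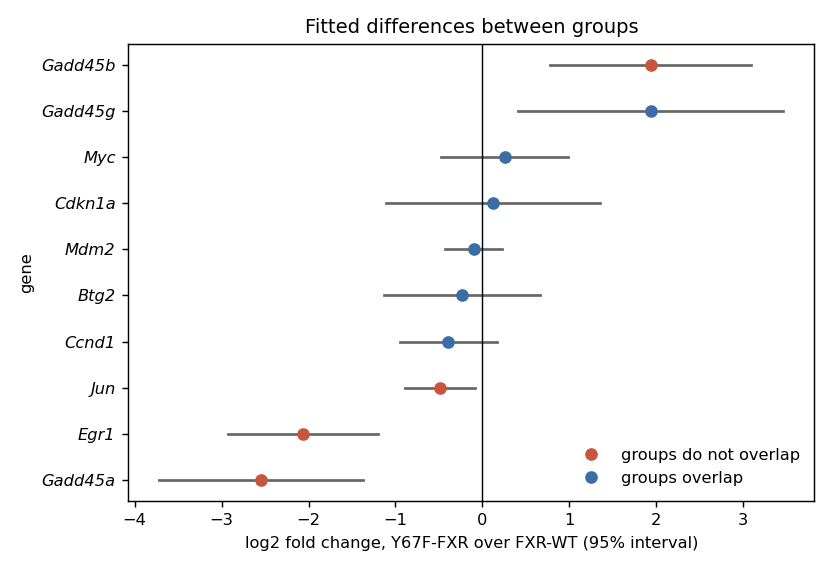
Fitted log2 fold change of Y67F-FXR over FXR-WT for each of the 10 genes, with its 95% interval from edgeR's quasi-likelihood fit, not adjusted for the number of genes. Gadd45a and Egr1 lie lowest at -2.54 and -2.06, Gadd45b and Gadd45g highest at 1.93, and the intervals of Myc, Cdkn1a, Mdm2, Btg2 and Ccnd1 include 0.

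Compared per kilobase of exon, the order of the 10 genes differed between the groups. In FXR-WT the highest mean levels were those of Egr1 and Gadd45a, both at 10.1 CPM per kb of all exon bases, followed by Ccnd1 at 8.31 and Mdm2 at 7.29 CPM per kb. Over the 986 bases it does not share, Gadd45a averaged 12.5 ± 9.16 CPM per kb (SD, n = 3), with livers from 6.98 to 23.1 that overlapped those of Egr1. These 4 genes overlapped each other across the FXR-WT livers, from 5.65 to 12.6 CPM per kb for Egr1, 5.62 to 18.6 for Gadd45a, 5.81 to 11.3 for Ccnd1 and 6.36 to 7.76 for Mdm2. The lowest were Cdkn1a at 1.55 and Gadd45b at 1.15 CPM per kb, whose livers also overlapped.

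In Y67F-FXR the highest mean was that of Gadd45g at 15.5 CPM per kb, over livers from 5.26 to 32.6, followed by Mdm2 at 6.81, Ccnd1 at 6.32 and Gadd45b at 4.41 CPM per kb. These neighbours overlapped across the livers. Egr1 at 2.43, Gadd45a at 1.73 and Cdkn1a at 1.68 CPM per kb were the lowest 3, and Egr1 and Gadd45a overlapped there too. Between these ends, in both groups, lay Jun, Btg2 and Myc, with means from 2.54 to 3.99 CPM per kb.

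The markers of some other cell types had ranges that differed between the groups. The neutrophil markers measured, S100a8, S100a9, Csf3r and Mpo, summed to between 3.80 and 6.84 CPM in FXR-WT and between 1.86 and 1.94 CPM in Y67F-FXR, with Mpo at 0 in every liver. All 3 that could be tested were fitted lower in Y67F-FXR with an unadjusted p under 0.05 (13.4% of all tested genes), and 0 were called (edgeR). These markers had few reads, with S100a8 between 0.0477 and 0.243 CPM in Y67F-FXR, and Csf3r overlapped between the groups. Their direction is the same as that of Gadd45a, Egr1 and Jun, and their part in those results was not tested. The 10 markers of Kupffer cells and leukocytes summed to between 182 and 261 CPM in FXR-WT and between 147 and 374 CPM in Y67F-FXR, the highest being Y67F-FXR replicate 2, the liver with the highest Gadd45b and Gadd45g, and their part in those results was not tested either. Of the endothelial, cholangiocyte and erythrocyte markers, 0 were called (edgeR), 1 had an unadjusted p under 0.05, and the summed levels overlapped between the groups. Hba-a1, Hba-a2 and Hbb-b1 were at 0 in every liver, so the erythrocyte sum was that of Alas2 alone.

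Leaving out each liver in turn showed which samples carried the differences. The sign stayed the same in all 6 fits for Gadd45a, Egr1, Jun, Gadd45b and Gadd45g. On the log2 scale Gadd45g ranged from 0.77 to 2.36, Gadd45b from 1.28 to 2.36, Gadd45a from -2.83 to -1.75, Egr1 from -2.46 to -1.85 and Jun from -0.59 to -0.32.

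**Figure D4:**
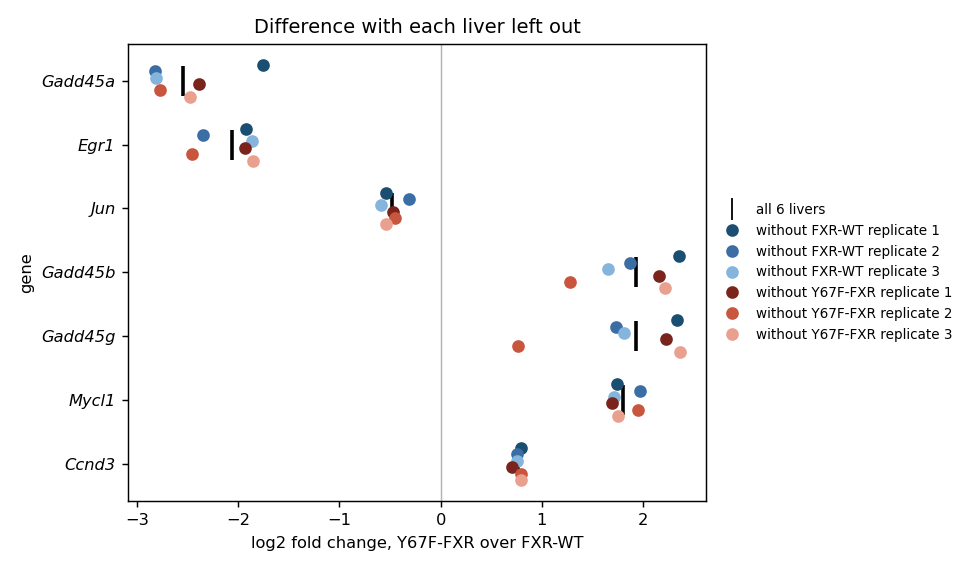
Fitted log2 fold change of Y67F-FXR over FXR-WT with all 6 livers (black bars) and with each liver left out (points, blue for FXR-WT and red for Y67F-FXR) for 5 of the 10 genes and for Mycl1 and Ccnd3. Gadd45g moves to 0.77 without Y67F-FXR replicate 2 and Gadd45a to -1.75 without FXR-WT replicate 1, and no point crosses 0.

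The rest of these pathways was read from 6 further lists, of which 87 genes could be tested. Across them 2 genes were called, where 0.972% of all tested genes were called in either direction. Both were higher in Y67F-FXR, the direction of the calls for 0.546% of all tested genes. For the counts below, 13.4% of all tested genes had an unadjusted p under 0.05 and 20.6% did not overlap between the groups. These lists too were chosen with earlier results of these data known.

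Of the other p53 pathway genes, 24 were listed and 21 tested, and 0 were called (edgeR). Of these, 5 had an unadjusted p under 0.05 and 4 did not overlap between the groups, and the median log2 fold change was 0.13. Trp53, the gene for p53, had 28.6, 23.0 and 24.1 CPM in FXR-WT and 17.7, 18.1 and 18.3 CPM in Y67F-FXR. The groups did not overlap, with a log2 fold change of -0.48 and an adjusted p of 0.145 (edgeR). Sesn2, a stress gene that restrains mTOR signalling, had a fitted log2 difference of 0.86 (adjusted p = 0.271) and Ei24 of 0.29 (adjusted p = 0.287), both from edgeR. The fitted values of the whole list ran from -0.71 to 0.86.

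Of the other immediate early genes, 25 were listed and 18 tested, and 0 were called (edgeR). Of these, 3 had an unadjusted p under 0.05 and 4 did not overlap between the groups, and the median was -0.10. Maff, a small Maf transcription factor, had 7.82, 8.39 and 10.6 CPM in FXR-WT and 4.47, 4.69 and 5.01 CPM in Y67F-FXR. Fosl2, a Fos family partner of Jun, had 5.13, 4.51 and 4.54 CPM in FXR-WT and 7.73, 7.86 and 9.26 CPM in Y67F-FXR. Neither gene overlapped between the groups, and their directions were opposite.

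The log2 fold change was -0.92 for Maff (adjusted p = 0.0635) and 0.81 for Fosl2 (adjusted p = 0.0721), and that of Klf10, a TGF-beta-inducible repressor, was 1.41 (adjusted p = 0.100), all from edgeR. The immediate early genes therefore did not share a direction, with 8 fitted higher and 10 lower. Fos, chosen for mention after its values were seen because its protein pairs with that of Jun, had 15, 14 and 9 reads in FXR-WT and 9, 5 and 5 in Y67F-FXR, too few to be tested.

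Of the other growth arrest genes, 16 were listed and 11 tested, and 0 were called (edgeR). Of these, 3 had an unadjusted p under 0.05 and 3 did not overlap between the groups, and the median was 0.26. Btg1, the close relative of Btg2, had 28.0, 27.3 and 24.1 CPM in FXR-WT and 46.7, 38.6 and 45.0 CPM in Y67F-FXR. The groups lay well apart, with a log2 fold change of 0.72 and an adjusted p of 0.0541 (edgeR), just outside the threshold. Gas1, a membrane protein of growth-arrested cells, had a fitted log2 difference of 1.01 (adjusted p = 0.142) and Gas6, a ligand of TAM receptors, of -0.32 (adjusted p = 0.304), both from edgeR.

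Of 25 cyclins, kinases and replication genes, 20 were tested and 1 was called (edgeR). Of those tested, 4 had an unadjusted p under 0.05 and 5 did not overlap between the groups. Ccnd3, encoding cyclin D3, had 31.5, 29.7 and 29.7 CPM in FXR-WT and 55.7, 49.1 and 49.9 CPM in Y67F-FXR. All 3 Y67F-FXR livers were above all FXR-WT livers, and the gene rose by 0.77 on the log2 scale (standard error 0.114) and an adjusted p of 0.0304 (edgeR). The call was lost whichever liver was left out, with adjusted p-values from 0.0573 to 0.133 (edgeR) and log2 fold changes from 0.71 to 0.80, and when library totals replaced the TMM factors (adjusted p = 0.0543). Ccnd3 shares 358 of its 2260 exon bases with Bysl on the other strand.

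Its relative Ccnd1 among the 10 genes had a log2 fold change of the opposite sign that did not pass the test, and the difference between them was not tested. Birc5, a survival and mitosis gene, had a fitted log2 difference of 1.31 (adjusted p = 0.0969) and Cdk2, the kinase of DNA synthesis, of 0.60 (adjusted p = 0.229), both from edgeR. The median of the list was 0.13.

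Of 10 Myc network genes, 9 were tested and 1 was called (edgeR). Of those tested, 3 had an unadjusted p under 0.05 and 5 did not overlap between the groups. Mycl1, encoding L-Myc, had 2.54, 3.39 and 2.42 CPM in FXR-WT and 11.2, 7.47 and 10.5 CPM in Y67F-FXR. Every Y67F-FXR liver was above every FXR-WT liver, and the gene rose by 1.80 on the log2 scale (standard error 0.226, 95% interval 1.28 to 2.33) and an adjusted p of 0.0176 (edgeR). The call was lost without FXR-WT replicate 3 (adjusted p = 0.0889), Y67F-FXR replicate 1 (0.0541) or Y67F-FXR replicate 3 (0.0810), with the log2 fold change between 1.69 and 1.97 over all 6 such fits (edgeR).

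Mycn, encoding N-Myc, had 1.08, 1.31 and 0.605 CPM in FXR-WT and 0.0486, 0.273 and 0.286 CPM in Y67F-FXR. These groups did not overlap, with a log2 fold change of -2.27 (95% interval -3.56 to -0.97, adjusted p = 0.124, edgeR) on very few reads. The 3 Myc paralogues therefore had values of 0.25 for Myc, 1.80 for Mycl1 and -2.27 for Mycn, of which that of Mycl1 alone passed the test. Mlx, a partner of glucose-sensing factors, had a fitted log2 difference of -0.36 (adjusted p = 0.238, edgeR), and the median of the list was -0.04.

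Of 10 ERK feedback genes, which are induced by ERK signalling, damp it or both, 8 were tested and 0 were called (edgeR). Of these, 1 had an unadjusted p under 0.05 and 1 did not overlap between the groups. Etv5 had 3.37, 3.30 and 4.80 CPM in FXR-WT and 2.72, 2.56 and 2.15 CPM in Y67F-FXR, with a log2 fold change of -0.63 and an adjusted p of 0.285 (edgeR). Spry4 had a fitted log2 difference of -0.32 (adjusted p = 0.636) and Dusp6, the phosphatase of ERK, of -0.18 (adjusted p = 0.638), both from edgeR. The median of the list was -0.18, and the values of its 8 tested genes ran from -0.63 to 0.09.

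**Figure D5:**
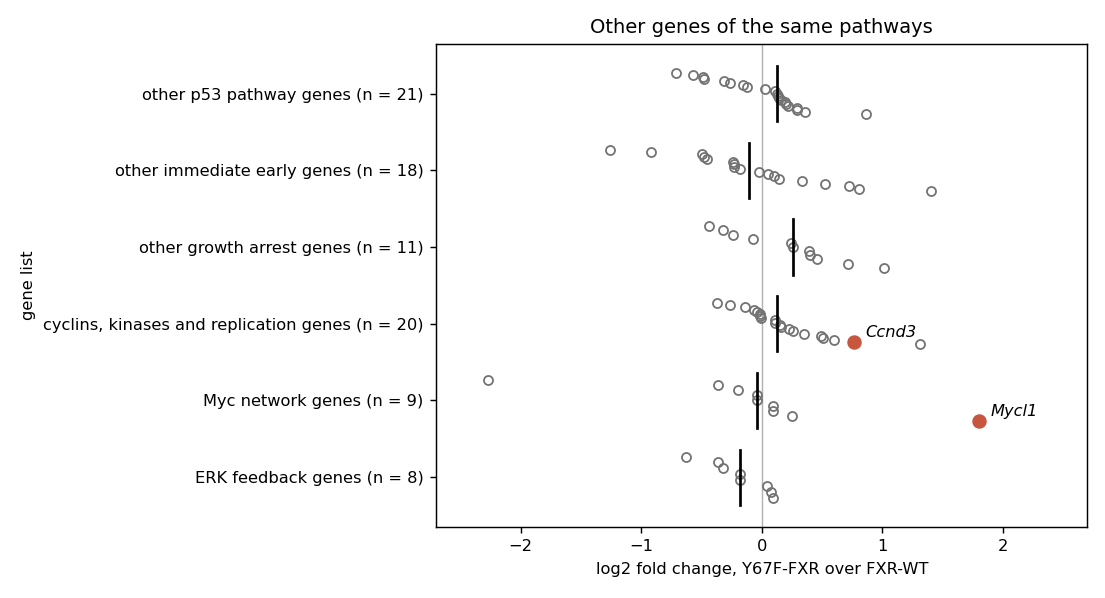
Fitted log2 fold change of Y67F-FXR over FXR-WT for each tested gene of 6 pathway lists, with open points for genes not called, filled points for called genes and a black line at the median of each list. Ccnd3 at 0.77 and Mycl1 at 1.80 are the called genes, and the medians lie between -0.18 and 0.26.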

How the data were processed

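RNA-seq was done on liver mRNA, with 3 samples per group as given by their titles. The authors deposited raw counts per gene, made, per the labels and file headers, with Trimmomatic 0.36, STAR 2.5.3a (the methods give another STAR version) and featureCounts 1.4.6-p4 on UCSC mm9 genes. Counting ignored strand, took each mate on its own and dropped multi-mapping reads and reads shared by genes, which lowers counts of overlapping genes. A deposited table of the authors' own comparison (fold changes and p-values) was not used.

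After filterByExpr and TMM scaling, groups were compared in edgeR 4.0.16 (R 4.3.3, quasi-likelihood) across all 6 livers without pairing. The common biological coefficient of variation was 0.194. Standard errors come from the F statistic and intervals are 95% intervals. The scripts were tested on simulated data. An exact permutation test of 3 against 3 cannot go below a two-sided p of 0.10. Replicates differed by more than counting noise.

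All 10 members, and from each list the called genes and the 3 with the smallest unadjusted p, were named. The members and lists were chosen with earlier results of these data known. Alternatives were other scaling factors, DESeq2 1.42.0, limma-voom (limma 3.58.1), other filters, length offsets, a replicate block and each liver left out. Figures were drawn with matplotlib.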

Additional observations from a re-analysis of the deposited data

How the results depend on the processing

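Of the 10 genes, limma-voom called 0, edgeR called 0 with TMM, RLE or upper quartile factors, a filter of 1 CPM or no fold minimum, 1 with library totals (Egr1), 2 with no filter on low counts or with gene length offsets (Gadd45a and Egr1 in both), and DESeq2 called 3. Leaving out each liver gave 0 to 1. Leaving out FXR-WT replicate 1 and Y67F-FXR replicate 2 together gave 3, in a fit chosen after the data were seen that cannot serve as a test of the Gadd45 genes. Of the other pathway genes, 2 were called, against 1 with library totals, 8 by DESeq2, 4 with length offsets and 0 to 1 with a liver left out. Over all genes, the 121 calls (68 higher and 53 lower) became 431 with DESeq2 (215 and 216), 247 with length offsets (123 and 124), and 202 without both livers named above (105 and 97), and no filter on low counts gave 81 lower. With library totals the split was 52 higher and 68 lower. Leaving out each liver gave 9 to 66 calls, from 2 to 35 higher and from 7 to 33 lower, the fewest without FXR-WT replicate 3. Fits with a liver left out hold fewer samples, and otherwise the cause was not tested.

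The median log2 fold change of the 10 genes lay between -0.35 and 0.04. With a liver left out, the log2 fold change ran from -0.27 to 1.09 for Cdkn1a, from -0.51 to 0.38 for Btg2 and from -0.012 to 0.67 for Myc. The sign turned for Btg2 without FXR-WT replicate 1 (0.38) and without that liver and Y67F-FXR replicate 2 (0.20), for Cdkn1a without FXR-WT replicate 2 (-0.12) or 3 (-0.27), and for Myc without FXR-WT replicate 2 (-0.012). The other 7 of the 10 genes and the 18 genes named from the pathway lists kept their sign in every alternative run for them.

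The labels give both groups replicate numbers 1 to 3, but same-numbered livers did not deviate together (correlations of -0.52, -0.08 and 0.12), so the numbers were not taken to pair them. With the replicate block, 8 genes were called (2 higher and 6 lower), 0 of them among the 10 genes and 0 among the other pathway genes, where Ccnd3 had an adjusted p of 0.178 and Mycl1 of 0.119 (edgeR). Not every sample correlated best with its own number. The lowest counts of the 10 genes were those of Gadd45b, with 20 to 177 reads, and Cdkn1a, with 28 to 127, and the part of depth was not tested.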
